A study of Mus musculus with 4 samples.

Results

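A set of 9 genes that mark the resident macrophage of the lung airspace, the alveolar macrophage, was followed across the leukocytes of tumour-bearing mouse lungs: Plet1, Ear1, Ear2, Chil3, Lpl, Slc7a2, Pparg, Abcg1 and Atp6v0d2. They are 9 of the 31053 genes listed in the count matrices, matched by symbol, and all 9 were found. The genes were chosen because they were high in the alveolar macrophages of these same libraries, so that contrast is given below as a description, with no test. Every gene-level p-value below concerns the comparison between the conditions of the injected tumour cells.

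Alveolar macrophages seed the airspaces around birth and maintain themselves there by local division. Their identity depends on GM-CSF made by the alveolar epithelium and on TGF-beta, which induce the nuclear receptor PPAR-gamma, encoded by Pparg. PPAR-gamma in turn drives a lipid programme for clearing surfactant, in which Abcg1 exports cholesterol and Lpl encodes lipoprotein lipase. Plet1 encodes a glycolipid-anchored surface protein, Slc7a2 a transporter of cationic amino acids such as arginine, and Atp6v0d2 a subunit of the membrane sector of the vacuolar proton pump. Ear1 and Ear2 encode secreted ribonucleases of the eosinophil-associated family, and Chil3 encodes Ym1, a secreted chitinase-like protein.

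Lung leukocytes came from Balb/c mice given 4T1 cells, a mouse mammary carcinoma line, by intravenous injection. The injected cells were either wild type (WT, 2 libraries) or lacked PD-L1 (PD-L1 KO, 2 libraries), and the mice themselves carried no stated mutation. Perfused lungs were taken on day 14, digested with collagenase and enriched for CD45-bearing cells on magnetic beads, and no tumour-free lung is among the samples used. The labels do not say how many mice stand behind a library or how the knockout line was derived, so the p-values measure the spread between libraries, which may in part be technical.

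The 4 libraries held 2370 to 2736 barcodes and 17618220 to 19635983 UMIs, and 9054 of 10382 barcodes were kept. No pair of libraries shared more than 3 barcodes. PD-L1 was deleted in the injected cells, which CD45 selection depletes, so its transcript in the leukocytes does not check the labels. The names under which the submitters stored the matrices carry the opposite condition to the labels. Groups here follow the labels, and each direction below holds for the libraries as labelled.

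Of 33 clusters built without the 9 genes, cluster 0 carried the alveolar markers and is called alveolar macrophage-like. It held 925 cells: 310 in WT 1, 187 in WT 2, 204 in PD-L1 KO 1 and 224 in PD-L1 KO 2. Its share of the kept cells was 12.6% and 7.91% in the WT libraries and 9.19% and 11.1% in the PD-L1 KO libraries. Among its markers, Car4 was detected in 78.7% of the cells, Olr1 in 78.2%, Cidec in 76.2%, Fabp1 in 75.0% and Siglecf in 58.3%. Marco, a scavenger receptor often used to define these cells, was detected in only 3.57%. The classes set beside it were C1q macrophage-like (754 cells, from a cluster led by Cxcl9 and Mmp12 and one led by Folr2), classical monocyte-like (418 cells) and nonclassical monocyte-like (246 cells). Together the 9 genes made up 1.17% to 1.19% of the UMIs of the alveolar class in each of the 4 libraries.

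Ear1 and Ear2 are relatives of 1 gene family, and their levels outside the alveolar class differed, so their upstream sequences are shown. Ear1 lies on chromosome 14 of mm10 at 43818765 to 43875517 on the minus strand, and Ear2 lies on the same chromosome at 44102654 to 44103534 on the plus strand. The sequences are the 250 bases before each RefSeq start site (GRCm38.p6), 5′ to 3′, chr14:43819640-43819889 on the minus strand for Ear1 and chr14:44102404-44102653 on the plus strand for Ear2. The Ear1 stretch lies inside the annotated span of the gene given above, which begins at 43875517 on the minus strand. Which start these cells used was not tested. Capitals mark the 4 bases of each that differ from, or have no partner in, the other.
Ear1: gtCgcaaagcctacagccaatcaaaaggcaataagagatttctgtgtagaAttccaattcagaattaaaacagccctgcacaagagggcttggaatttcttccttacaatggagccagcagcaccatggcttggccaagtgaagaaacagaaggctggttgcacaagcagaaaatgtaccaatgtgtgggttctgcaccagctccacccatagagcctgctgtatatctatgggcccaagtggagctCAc
Ear2: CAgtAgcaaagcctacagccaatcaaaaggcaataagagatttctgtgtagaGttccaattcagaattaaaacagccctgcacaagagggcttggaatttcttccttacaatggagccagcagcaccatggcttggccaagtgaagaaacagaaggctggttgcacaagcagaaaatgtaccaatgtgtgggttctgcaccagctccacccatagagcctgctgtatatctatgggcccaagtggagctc
In the alignment 246 of 252 positions were identical, which is 97.6%. The letters TTGCNNAA, a core that C/EBP factors can bind, were found once in each, at 92 to 85 bases before the Ear1 start and at 90 to 83 before the Ear2 start, and 9.56% of 32851 mouse promoters of that length hold them on either strand. The stretch holding this match is the same in both. The transcripts were also alike, with 691 of 719 aligned positions identical (96.1%).

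This likeness bears on the counts, because a read that matches more than one gene is not normally counted. Of the 310 windows of 91 bases, the read length, in the last 400 bases of the Ear1 transcript, 31.0% occurred exactly in another gene (Ear2, Ear10 or the pseudogenes Ear-ps2 and Ear-ps9). For Ear2 the share was 0.968%, and for the other 7 genes it was 0. The level of Ear1 may therefore be understated, and its comparison between classes or libraries rests on its remaining reads. The other 7 genes lie on chromosome 9 (Plet1, 50494525 to 50505482), chromosome 3 (Chil3, 106147554 to 106167564), chromosome 8 (Slc7a2, 40862396 to 40922308, and Lpl, 68880491 to 68907448), chromosome 6 (Pparg, 115360951 to 115490399), chromosome 17 (Abcg1, 31057675 to 31117988) and chromosome 4 (Atp6v0d2, 19876841 to 19922605). Plet1 and Pparg each overlap an annotated antisense gene (Plet1os and Gm44079), and no source used here says whether the counting used strand.

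Levels are given as UMI counts scaled to the class total (counts per 1000000 UMIs, CPM), from cells of 1 class summed within 1 library. Ear2 was not restricted to the alveolar class. In alveolar macrophage-like cells it stood at 1550 and 1520 CPM in the WT libraries and 1699 and 1607 CPM in the PD-L1 KO libraries. Nonclassical monocyte-like cells, which patrol the vessel wall, carried 527 and 569 CPM in WT and 676 and 545 CPM in PD-L1 KO. Type 2 dendritic cell-like cells (142 cells) carried 397 and 525 CPM in WT and 360 and 281 CPM in PD-L1 KO. Among the named classes these 2 ranked next after the alveolar class, with the lowest nonclassical value just above the highest dendritic one, and they stood above classical monocyte-like cells (49.7 to 104 CPM) and C1q macrophage-like cells (51.2 to 115 CPM), which overlapped each other. B cell-like cells, which should lack the gene, had 1.31 to 8.04 CPM.

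Ear1 did not share that pattern. It stood at 479 and 578 CPM in WT alveolar cells and 499 and 361 CPM in PD-L1 KO alveolar cells. In the 246 nonclassical monocyte-like cells a single Ear1 UMI was counted over the 4 libraries, against 683 UMIs of Ear2. Type 2 dendritic cell-like cells gave 12 Ear1 UMIs against 670 of Ear2. Alveolar cells held 3.34 Ear2 UMIs for each Ear1 UMI, and the ratio was 55.8 in the type 2 dendritic cells, 15.9 in classical monocytes and 6.21 in C1q macrophages. The C1q ratio rested in part on a few cells with alveolar markers. Without cells carrying 3 or more of them, Ear1 in C1q macrophages was at most 0.9405 CPM and Ear2 was 20.75 to 55.07 CPM. At a depth of 2000 UMIs per cell, 55.4% to 63.4% of nonclassical monocyte-like cells had an Ear2 UMI, against at most 1.59% with an Ear1 UMI and at most 1.09% of B cell-like cells with an Ear2 UMI. Without that thinning the Ear2 share in nonclassical monocytes was 73.1% to 82.7%. Ear1 and Ear2, with nearly the same 250 bases before their RefSeq start sites, thus had different ranges of cell classes in every library. The annotated Ear1 gene begins further upstream, so its start in these cells may be another.

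Pparg, the regulator of the group, came close to its alveolar level in nonclassical monocyte-like cells in 3 of 4 libraries, and was above it in PD-L1 KO 1. Its level in the alveolar class was 105 and 116 CPM in WT and 99.9 and 96.2 CPM in PD-L1 KO. Nonclassical monocyte-like cells had 85.6 and 109 CPM in WT, and 107 and 40.8 CPM in PD-L1 KO, the last from 8 UMIs (95% Poisson interval 17.6 to 80.3 CPM, counting error only). The ranges of these classes overlapped. Plet1 in the same monocytes came to 1 UMI and Slc7a2 to 3 UMIs over all libraries, against 107 UMIs of Pparg. A T cell-like cluster of 178 cells led by Il1rl1 and Gata3, genes of type 2 lymphocytes, had 20.5 to 83.6 CPM, and an unnamed cluster of 62 cells in which alveolar and B cell markers were mixed had 21.9 to 126 CPM. Classical monocyte-like cells (14.8 to 18.9 CPM) and C1q macrophage-like cells (9.89 to 13.7 CPM) were lower, and the alveolar class held only 58.9% ± 6.42 (SD, n = 4) of all Pparg UMIs in kept cells, the lowest share among the 9 genes.

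The lipid genes were highest in the alveolar class but spread to other cells. Lpl stood at 2364 and 2865 CPM in WT alveolar cells and at 2332 and 2082 CPM in PD-L1 KO alveolar cells. Fibroblast-like cells (199 cells) had 123 to 556 CPM of Lpl, type 2 dendritic cell-like cells 197 to 377 CPM and C1q macrophage-like cells 126 to 238 CPM, and these ranges overlapped. Lipoprotein lipase is known to act at the capillary wall, and 3 clusters with endothelial markers, left unnamed because markers of megakaryocytes or fibroblasts were mixed in, had 104 to 125, 138 to 224 and 37.7 to 101 CPM. Abcg1 stood at 1859 and 1793 CPM in WT alveolar cells and at 1671 and 1618 CPM in PD-L1 KO alveolar cells. In lymphocytes it stood at 35.0 to 47.1 CPM in T cell-like and 19.3 to 32.3 CPM in B cell-like cells. At 2000 UMIs per cell, 3.70% to 5.98% of B cell-like cells had an Abcg1 UMI, while for each of the other 8 genes the share was at most 2.47%.

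By the mean of the libraries all 9 genes had most of their UMIs in the alveolar class, and Ear1, Plet1, Slc7a2 and Atp6v0d2 had the highest shares. Plet1 stood at 1287 and 1413 CPM in WT alveolar cells and at 1269 and 1117 CPM in PD-L1 KO alveolar cells. Slc7a2 had 654 and 660 CPM in WT and 612 and 633 CPM in PD-L1 KO, and Atp6v0d2 had 687 and 708 CPM in WT and 657 and 656 CPM in PD-L1 KO. The alveolar class held 83.7% of the Ear1 UMIs in kept cells, 81.5% of Plet1, 80.0% of Slc7a2 and 77.4% of Atp6v0d2 (means of 4 libraries). Of the Ear1 UMIs outside the class, 63.8% lay in 2 unnamed clusters in which alveolar markers were mixed with B cell markers (62 cells) or with cell cycle genes (205 cells), and for Plet1, Slc7a2 and Atp6v0d2 the share was 58.7%, 52.9% and 49.8%. These shares depended on the clustering: with the 9 genes kept among the clustering genes they were 91.6%, 88.7%, 87.5% and 85.7%. Chil3, at 74.3%, was below Atp6v0d2 in the main clustering and above it, at 86.5%, with the 9 genes kept. In the main clustering Lpl (75.7%), Ear2 (74.0%) and Abcg1 (73.1%) also lay close below Atp6v0d2, whose share had an SD of 5.6 over the libraries.

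Chil3, the member with the most UMIs in alveolar cells, stood at 2888 and 2257 CPM in WT and at 2863 and 3612 CPM in PD-L1 KO. Classical monocytes, the circulating Ly6C-high type, are also known to hold Ym1. By the mean of the libraries, classical monocyte-like cells came next among the named classes. They had 241 and 179 CPM in WT and 312 and 425 CPM in PD-L1 KO. Fibroblast-like cells (41.55 to 511 CPM) and mature dendritic cell-like cells (0 to 344 CPM) overlapped them. At 2000 UMIs per cell, 17.0% to 33.7% of the classical monocyte-like cells had a Chil3 UMI, against at most 2.47% of B cell-like cells. C1q macrophage-like cells had 89.4 to 207 CPM.

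**Figure D1:**
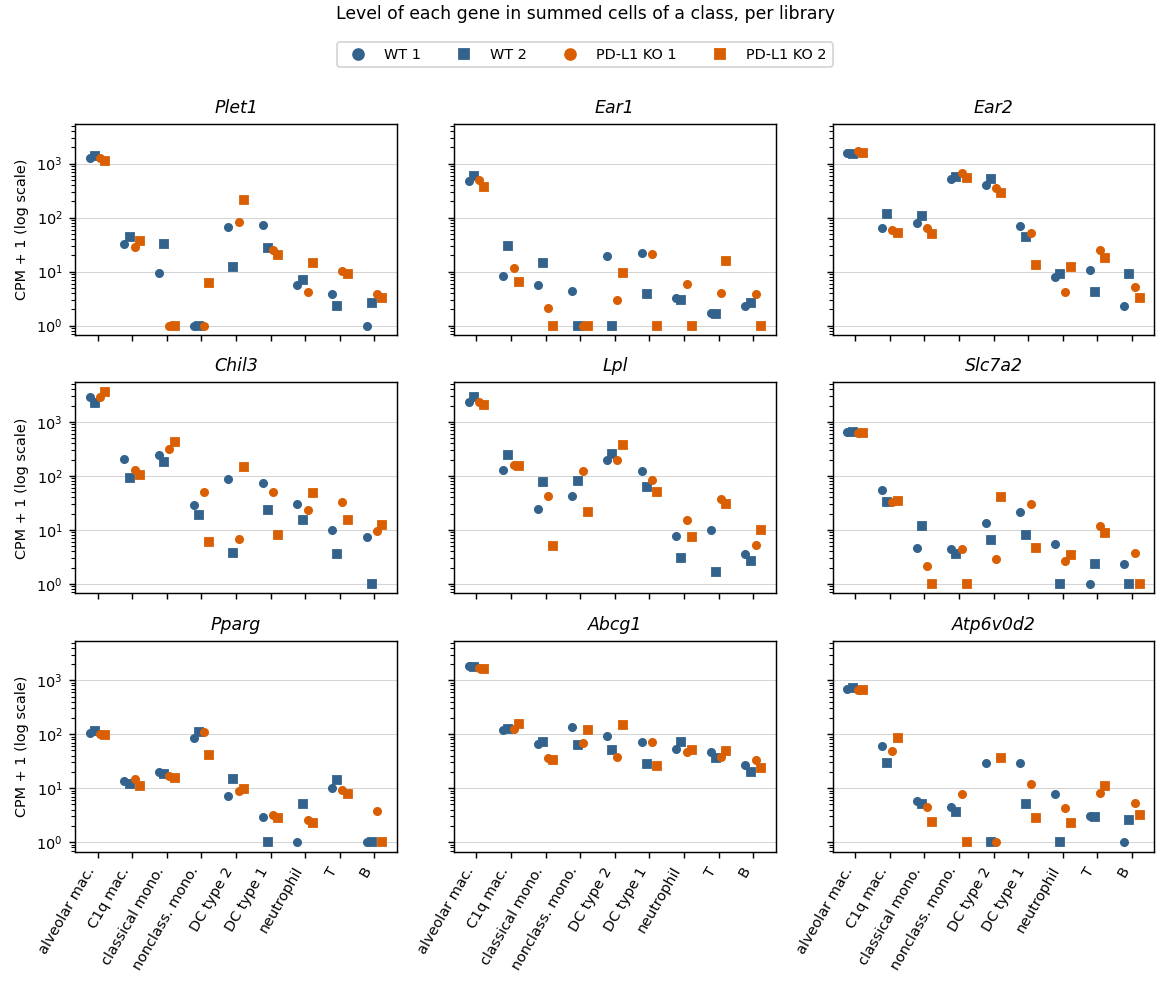
Levels of the 9 genes, in CPM + 1 on a log axis, in the summed cells of 9 classes, with 1 point per library (blue WT, orange PD-L1 KO; circles replicate 1, squares replicate 2). All 9 genes were highest in the alveolar class in the mean of the libraries; Ear2 reached 527 to 676 CPM and Pparg 40.8 to 109 CPM in nonclassical monocytes, where Ear1 and Plet1 came to 1 UMI each.

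Much of the signal in C1q macrophage-like cells came from a few cells. In WT 1, a single C1q cell held 303 of the 549 Chil3 UMIs of the class. Leaving out the 8, 6, 8 and 8 cells per library (in the order WT 1 and 2, then PD-L1 KO 1 and 2) that carried 3 or more alveolar markers, a step added after the data were seen, lowered Plet1 from 27.6 to 43.1 CPM to 1.25 to 19.1 CPM and Ear1 from 5.53 to 29.0 CPM to at most 0.941 CPM. Lpl and Abcg1 stayed measurable in the remaining C1q cells, at 78.9 to 155 CPM and 67.3 to 127 CPM. Atp6v0d2 was 43.2 and 2.62 CPM in WT and 36.3 and 72.1 CPM in PD-L1 KO without those cells, so WT 2 stood apart.

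Within the alveolar class most cells showed several of the 9 genes together. At 2000 UMIs per cell (919 cells; 6 shallower cells left out), the share of cells with a UMI was 94.6% to 96.4% for Chil3, 91.4% to 97.3% for Lpl, 90.1% to 94.1% for Abcg1, 88.7% to 93.7% for Ear2 and 84.7% to 90.6% for Plet1. It was 66.7% to 71.9% for Slc7a2, 61.1% to 72.6% for Atp6v0d2, 43.7% to 58.1% for Ear1 and 16.7% to 21.2% for Pparg. A median of 7 of the 9 genes was seen per cell, 95% to 96.8% of the cells showed 5 or more, and 2.46% to 6.45% showed all 9. In the B cell-like class no cell showed 5 or more. Over cells within a library, as a description, the highest rank correlation was between Ear1 and Ear2 (Spearman's rho of 0.128 to 0.210), and Chil3 ran weakly opposite to Abcg1 (rho of -0.164 to -0.0646) in all 4 libraries. These coefficients come from sparse counts of cells that share a library, and such weak values are no finding.

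No member of the group passed the test between the conditions in alveolar macrophage-like cells. After edgeR's quasi-likelihood test on the summed UMIs, with Benjamini-Hochberg adjustment over 9316 genes, 0 of the 9 passed 0.05 in either direction, against 0.376% of all genes tested that were called higher and 0.0107% called lower in PD-L1 KO (35 genes and 1 gene). The call count rests on which libraries entered: these 36 became 142 without WT 1, 153 without PD-L1 KO 1 and 162 without PD-L1 KO 2. A fit without 1 library holds 1 library in 1 group, so its spread comes from the other group alone. Such counts show only that the calls depend on the libraries, and cannot be set beside the 2-against-2 test. In the main fit, at an unadjusted p under 0.05, Chil3 and Ear2 were the members reached, beside 907 of all 9316 genes tested. DESeq2 called none of the 9. Of the 9 log2 differences 7 lay below 0, and their median was -0.11, beside 0.00 over all genes. In TMM-normalised values both PD-L1 KO libraries stood above both WT libraries for Ear2 and Chil3, as for 21.2% of all genes, and for Slc7a2, Pparg, Abcg1 and Atp6v0d2 both stood below, as for 19.5%. For Chil3 this rests on the scaling: the raw CPM of PD-L1 KO 1, 2863, lies just under the 2888 of WT 1, and the normalised values are 2929 and 2858.

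The log2 differences, PD-L1 KO minus WT, ranged from -0.25 for Ear1 (SE 0.14, adjusted p = 0.643) to 0.37 for Chil3 (SE 0.12, adjusted p = 0.333). Lpl differed by -0.21 (SE 0.094, adjusted p = 0.528) and Ear2 by 0.14 (SE 0.064, adjusted p = 0.506). For the lipid exporter Abcg1 the 95% interval of the difference ran from -0.25 to 0.02, and for Slc7a2, the transporter, from -0.20 to 0.11. Pparg itself differed by -0.13 (95% interval -0.38 to 0.12). Differences of 1 on this scale, in either direction, lie outside all 9 intervals. Which libraries entered mattered for Chil3, Ear1 and Lpl. Chil3 differed by 0.55 without WT 1 and 0.52 without PD-L1 KO 1, and Ear1 differed by -0.52 without PD-L1 KO 1. Without WT 2 or PD-L1 KO 2 the Chil3 difference came to 0.20, and the Ear1 difference to -0.12 and -0.03. Lpl differed by -0.34 without WT 1, -0.06 without WT 2, -0.30 without PD-L1 KO 1 and -0.12 without PD-L1 KO 2. With all libraries and no filter on low counts Chil3 passed (adjusted p = 1.87e-06).

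**Figure D2:**
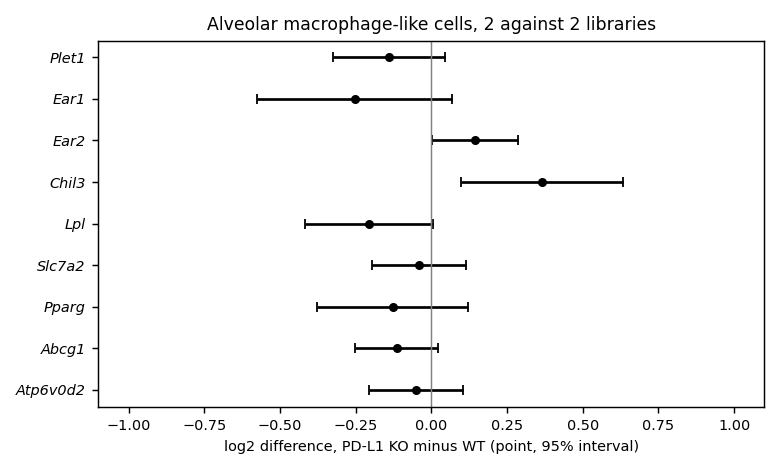
Log2 difference between PD-L1 KO and WT for each of the 9 genes in alveolar macrophage-like cells (points, edgeR estimates; bars, 95% intervals; 2 against 2 libraries). The estimates lie between -0.25 for Ear1 and 0.37 for Chil3, and none has an adjusted p under 0.05.

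Between the groups the Chil3 levels differed more in the upper tail of the cells than at the median. The median cell had 2352 and 2050 CPM of Chil3 in WT and 2151 and 2345 CPM in PD-L1 KO, so the medians of the groups overlapped. The 90th percentile was 4212 and 3512 CPM in WT and 4794 and 5592 CPM in PD-L1 KO. The highest 10% of cells held 34.2% and 29.2% of the Chil3 UMIs of the class in WT and 38.2% and 47.5% in PD-L1 KO, and in PD-L1 KO 2 a single cell held 880 UMIs, 10.7% of that library's. For Plet1 the highest 10% of cells held 20.4% to 22.9% in every library. The direction was not particular to Chil3: Ear1, Slc7a2, Abcg1 and Atp6v0d2 also had higher shares in both PD-L1 KO libraries. For Slc7a2 this was nearly a tie, with 21.61% in WT 2 and 21.63% in PD-L1 KO 1. How many of all genes show the same order was not computed, so the count of members shows little. For Ear1 the share was 32.6% and 31.4% in WT and 34.9% and 36.3% in PD-L1 KO. For Plet1, Ear2, Lpl and Pparg the groups did not separate. Cells were ranked by raw UMIs for these shares, so the shares also depend on the depth of each cell.

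In classical monocyte-like, nonclassical monocyte-like and C1q macrophage-like cells no member was called either. Other classes, such as neutrophil-like and dendritic cell-like cells, were not tested between the conditions. In classical monocyte-like cells 5 of the 9 genes had enough UMIs to be tested, and 0 were called, against 0.044% of 6816 genes called higher and 0.0293% called lower. Those 5 called genes became 0 without WT 1, 40 without PD-L1 KO 1 and 50 without PD-L1 KO 2. Chil3 was detected there in 39 of 111 and 29 of 95 cells in WT and in 58 of 113 and 49 of 99 cells in PD-L1 KO. The log2 difference was 0.82 (SE 0.18, adjusted p = 0.236), and both PD-L1 KO libraries stood above both WT libraries, as for 16% of all genes there. The Chil3 difference was 1.04 without PD-L1 KO 1. It passed with doublets kept (0.84, adjusted p = 0.0171) and with no filter on low counts (0.82, adjusted p = 0.000367). When monocytes were chosen by markers cell by cell it was 0.05 (adjusted p = 0.974). Abcg1 in the same cells had 64.9 and 72.0 CPM in WT and 35.1 and 32.3 CPM in PD-L1 KO, a log2 difference of -0.998 (SE 0.24, adjusted p = 0.378), with both PD-L1 KO libraries below both WT libraries, as for 16.7% of all genes there. In WT 2, 2 cells held over 50% of those Abcg1 UMIs, and 1 cell held 22 of the 54. Ear2 there had 80.2 and 104 CPM in WT and 63.4 and 49.7 CPM in PD-L1 KO (log2 difference -0.67, adjusted p = 0.997).

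In nonclassical monocyte-like cells 4 of the 9 genes were tested and 0 called, against 0.0236% of 4236 genes called higher and 0% called lower. That 1 gene became 3 without WT 1, 9 without WT 2, 0 without PD-L1 KO 1 and 4 without PD-L1 KO 2. Ear2, the member with the most UMIs there, differed by 0.19 (SE 0.15, adjusted p = 0.981), and Pparg by -0.28 (SE 0.35, adjusted p = 0.981). Without PD-L1 KO 2, the library with 8 Pparg UMIs, the Pparg difference was 0.15. In C1q macrophage-like cells all 9 genes were tested and 0 called, as was no other of 10228 genes (0%, with 647 genes at an unadjusted p under 0.05 and 6 called by DESeq2). Leaving out 1 library gave 894 calls without WT 1, 2 without WT 2, 73 without PD-L1 KO 1 and 26 without PD-L1 KO 2. Ear2 there had 63.0 and 115 CPM in WT and 58.6 and 51.2 CPM in PD-L1 KO (log2 difference -0.60, adjusted p = 0.745). Without WT 1 the Ear2 difference was -0.95. Abcg1 had 118 and 125 CPM in WT and 126 and 154 CPM in PD-L1 KO (log2 difference 0.25, adjusted p = 0.762), both PD-L1 KO libraries above both WT libraries, as for 20.3% of all genes there.

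Chil3 in C1q macrophage-like cells turned with the cells that carried alveolar markers. The log2 difference was -0.33 (adjusted p = 0.828) over all cells of the class and 0.50 without WT 1, whose single cell with 303 UMIs is described above. Without the cells carrying 3 or more alveolar markers, Chil3 stood at 19.9 and 18.4 CPM in WT and 43.3 and 55.5 CPM in PD-L1 KO, a log2 difference of 1.39 (adjusted p = 0.759).

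Whether a difference between the conditions was itself different in alveolar and C1q macrophage-like cells was tested with the library as a block. None of the 9 passed, as did 0% of 10493 genes in either direction (609 at an unadjusted p under 0.05, 0 called by DESeq2). The count was 525 without WT 1, 85 without WT 2 and 2 without PD-L1 KO 1. For Ear2 the difference of the effects was 0.70 (SE 0.25, adjusted p = 0.727), and for Chil3 0.56 (SE 0.28, adjusted p = 0.883). Without WT 1 the Ear2 value was 1.098. With all libraries and no filter on low counts it was 0.72 (adjusted p = 0.0286). Without WT 2 the Chil3 value was 1.02. The only WT library was then WT 1, in which 1 C1q cell held 303 of the 549 Chil3 UMIs. Without cells with markers of the other class the Chil3 value was -1.05.

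The genes around the alveolar programme were read in the fit of alveolar macrophage-like cells. There 0.376% of all genes tested were called higher and 0.0107% lower, so short lists with 0 calls show little. Of 17 tested genes for the GM-CSF and TGF-beta receptors, their transducers and the transcription factors of these cells, 0 were called, and their median log2 difference was 0.00. Csf2rb, the beta chain of the GM-CSF receptor, had normalised CPM of 664 and 648 in WT and 724 and 731 in PD-L1 KO (log2 difference 0.15, adjusted p = 0.533). Klf4, a macrophage transcription factor, had 290 and 267 in WT and 244 and 227 in PD-L1 KO (log2 difference -0.25, adjusted p = 0.419). Of 15 tested subunits of the vacuolar proton pump, the partners of Atp6v0d2, 0 were called (median 0.03). Of 6 genes of arginine transport and use, the setting of Slc7a2, 0 were called (median 0.04), and of 4 family relatives of the members, 0 (median -0.08).

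Among 27 tested lipid-handling genes 1 fell and 0 rose, with a median of -0.04. The gene that fell was Fabp5, a fatty acid-binding protein, with normalised CPM of 508 and 470 in WT and 313 and 350 in PD-L1 KO (log2 difference -0.56, SE 0.088, adjusted p = 0.0353). Its call was lost with the members kept in clustering (-0.41, adjusted p = 0.446), with the marker gate cell by cell (-0.35, adjusted p = 0.539), at the finer clustering (-0.53, adjusted p = 0.473) and without cells carrying monocyte markers (-0.43, adjusted p = 0.0757). Its relative Fabp4 had 72.0 and 51.8 in WT and 34.5 and 28.0 in PD-L1 KO (log2 difference -1.01, adjusted p = 0.0587). The Fabp4 difference was -0.72 without WT 1, -1.21 without WT 2, -1.18 without PD-L1 KO 1 and -0.88 without PD-L1 KO 2. Msr1, the class A scavenger receptor, had 73.2 and 56.2 in WT and 107 and 124 in PD-L1 KO (log2 difference 0.82, adjusted p = 0.0514). The Msr1 difference was 1.04 without WT 1, 0.65 without WT 2, 0.91 without PD-L1 KO 1 and 0.71 without PD-L1 KO 2. Of 16 other genes typical of alveolar macrophages 1 rose, the lysosomal protease gene Ctsk, from 233 and 238 to 337 and 404 (log2 difference 0.65, adjusted p = 0.0353), with a median of -0.03 over the list. Marco had 13.8 and 13.2 in WT and 23.1 and 43.1 in PD-L1 KO (log2 difference 1.28, adjusted p = 0.132). Without PD-L1 KO 1 the Marco difference was 1.67. Krt79 went the other way, with 107 and 121 in WT and 84.7 and 80.4 in PD-L1 KO (log2 difference -0.46, adjusted p = 0.18). In 6 of the 16 genes both PD-L1 KO libraries stood below both WT libraries, as for 19.5% of all genes. In 4 both stood above, as for 21.2%.

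The same cells did differ between the conditions in other genes. Of 35 tested interferon-response genes 8 rose and 0 fell, against 0.376% of all genes tested called higher and 0.0107% called lower. The median of the 35 was 1.44. In 34 of them both PD-L1 KO libraries stood above both WT libraries, as for 21.2% of all genes. Ifitm3, an antiviral membrane protein, had 36.8 and 40.6 in WT and 122 and 115 in PD-L1 KO (log2 difference 1.63, adjusted p = 0.00138), and Isg15, a ubiquitin-like modifier, 18.9 and 10.3 in WT and 58.0 and 48.4 in PD-L1 KO (log2 difference 1.80, adjusted p = 0.0181). The interferon genes called numbered 22 without WT 1, 16 without PD-L1 KO 1 and 23 without PD-L1 KO 2, but 1 with the members kept in clustering, where Ifitm3 differed by 0.98 (adjusted p = 0.344) and Isg15 by 0.83 (adjusted p = 0.271). With doublets kept Ifitm3 differed by 0.31 (adjusted p = 0.632). Markers of classical monocytes moved the same way, with 3 of 7 tested called higher (Ccr2, Fn1 and Plac8; median 1.43), 5 without PD-L1 KO 2, 1 with doublets kept or the members kept in clustering and 0 with the marker gate or at the finer clustering. The 8 markers of that list summed to 256 and 232 CPM in WT and 461 and 624 CPM in PD-L1 KO in the alveolar class, and none was at 0. The 9 neutrophil markers summed to 111 and 185 CPM in WT, and to 149 and 666 CPM in PD-L1 KO. Without the 5, 3, 11 and 13 alveolar cells that carried 3 or more classical monocyte markers, 56 genes were called higher and 2 lower, and Chil3 differed by 0.39 (adjusted p = 0.277). The part of other cells' RNA in these differences was not tested further.

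**Figure D3:**
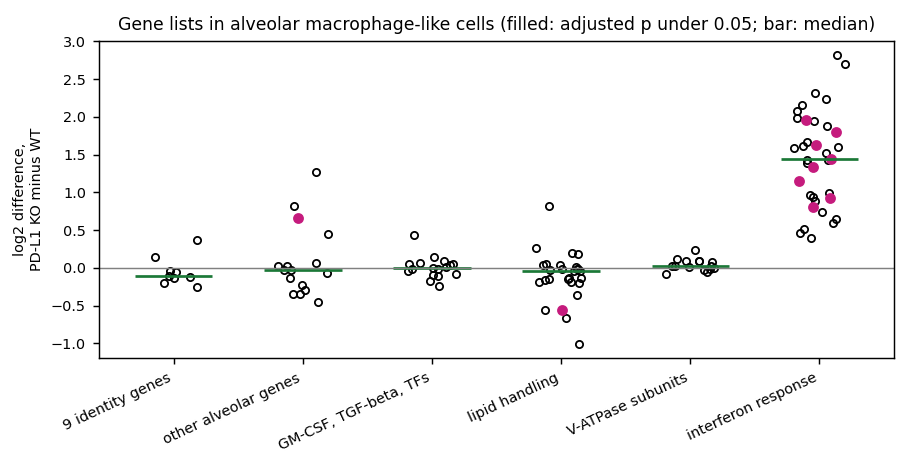
Log2 differences between PD-L1 KO and WT in alveolar macrophage-like cells for the tested genes of 6 lists, with 1 circle per gene, filled where the adjusted p is under 0.05, and a bar at the median. The 9 identity genes lie between -0.25 and 0.37, and the interferon-response genes have a median of 1.44 with 8 of 35 called.

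Per total UMIs, dividing alveolar cells had lower levels of the members other than Chil3. Cluster 16, led by Mki67 and Top2a, mixed dividing cells of several types, and 55 of its cells were alveolar by their markers (17 and 6 in WT, 18 and 14 in PD-L1 KO). In these cells Ear2 stood at 51.7% and 57.1% of the level in the main alveolar class of the same library in WT and at 48.0% and 41.8% in PD-L1 KO. Lpl stood at 45.3% to 57.3% and Plet1 at 54.2% to 83.1%. All 8 genes other than Chil3 were below the main class in 4 of 4 libraries, though Pparg, at 49.9% to 98.3%, rests on 13 to 26 UMIs per library. Chil3 came to 168% of the main class in WT 1, to 132% and 162% in the PD-L1 KO libraries, and to 76.8% in WT 2, the library with 6 such cells. At the finer clustering (resolution 2) a cycling alveolar cluster of 20, 10, 21 and 15 cells showed the same order, with Ear2 at 828, 850, 824 and 665 CPM and Chil3 at 4713, 1716, 3512 and 5629 CPM. These cells overlap with the marker-chosen ones and are no second sample. No test was run on these levels, and a level per total UMIs also depends on how much RNA of other genes a cell holds.

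**Figure D4:**
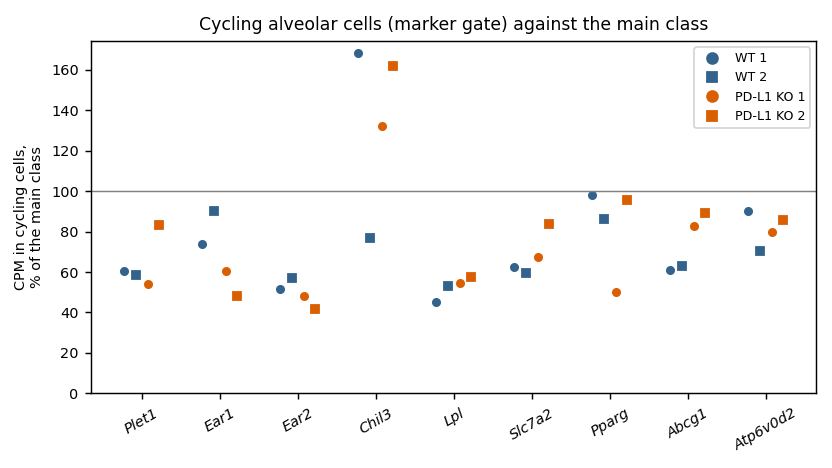
Level of each gene in the 55 cycling cells that were alveolar by their markers, as a percent of its level in the main alveolar class of the same library (1 point per library; line at 100%). Ear2 and Lpl lie between 41.8% and 57.3%, whereas Chil3 lies above 100% in 3 of 4 libraries.

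Cell cycle genes in the main alveolar class had no call among 8 tested, with a median log2 difference of 0.57. Mki67, a marker of dividing cells, had normalised CPM of 10.6 and 7.82 in WT and 19.9 and 17.3 in PD-L1 KO (log2 difference 0.98, adjusted p = 0.187).

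The genes whose levels over 13 classes were most like the mean profile of the 9 were Cidec, a lipid droplet protein (Pearson's r of 0.951), Lrp12 (0.9502), Lipa, the lysosomal acid lipase (0.947), Spns1, a lysosomal transporter (0.945), and Krt19, a keratin (0.935). Cidec and Krt19 served as markers of the alveolar class, so their place follows in part from the choice of cells. Member by member, Ear1 was most like Krt19 (0.979) and Slc7a2 (0.965). Ear2 was most like Flt1 (0.910) and Pparg like Noct (0.932). These coefficients are over class means of the same 4 libraries and describe only likeness of pattern.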

How the data were processed

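UMI counts per gene and barcode were deposited by the authors as filtered matrices, and the submitters' processing notes name Cell Ranger 3.1.0, STAR and the mm10 build. The unit is a raw count, with no normalization by the authors. Barcodes needed 200 genes and under 10% mitochondrial UMIs (1126 of 10382 left out), and 216 doublets (2.08%) marked by simulation were removed. Cells were clustered with scanpy 1.11.5 and Leiden (leidenalg 0.10.2, resolution 1, 2000 variable genes, 30 components, 15 neighbours, the 9 genes left out), and clusters were named from marker lists, with limits on mixed markers set after the clusters were seen. Of 33 clusters 14 stayed unnamed (2175 cells), so a difference from the authors' cell types may come from these names.

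UMIs were summed per library and class and tested with edgeR 4.0.16 (filterByExpr, TMM, quasi-likelihood, Benjamini-Hochberg over all genes, 0.05). DESeq2 1.42.0, RLE size factors, no filter, a replicate block, leaving out each library and other cell choices were alternatives. A fit that leaves out a library holds 1 library in 1 group, so its calls are not comparable with those of the main fit. CPM is from raw sums, and normalised CPM uses TMM. Intervals of counts are 95% and cover counting error only. The fits were tested on simulated data.

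The members and lists were chosen with earlier results of these data known. Named genes are the 9 members, the tested genes of smallest p per list (up to 4) with any past the threshold, and the 5 genes most like the members' mean log2(CPM + 1) profile, plus 2 per member, of those with at least 50 CPM in alveolar cells; only some are printed. Promoters are from RefSeq (GRCm38.p6), found for 5 of 9 members (not Lpl, Slc7a2, Abcg1 and Atp6v0d2); gene positions are from GENCODE on GRCm38, the build of mm10, by gene ID.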

Additional observations from a re-analysis of the deposited data

Results flagged for a closer look

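Ear2 stood on opposite sides in 2 classes: in alveolar macrophage-like cells both PD-L1 KO libraries were above both WT libraries (log2 difference 0.14), and in classical monocyte-like cells both were below (-0.67). Abcg1 was higher in both PD-L1 KO libraries in C1q macrophage-like cells (log2 difference 0.25) and lower in both in classical monocyte-like cells (-0.998). Neither difference between classes was tested, and none of the 4 values had an adjusted p under 0.05 in edgeR. In the classical monocyte-like cells, Ear2 and Abcg1 changed sign when doublets were kept (0.13 and 0.045).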

How the results depend on the processing

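In alveolar macrophage-like cells all 135 alternative values of the 9 members kept their sign, and 128 stayed on the same side of the threshold. The 7 that passed belong to Chil3, Ear1 and Lpl, in part from fits with 1 library in 1 group. The lowest adjusted p in edgeR was 2.19e-07 for Chil3 and 0.0321 for Lpl, neither from a fit that left out a library. The number of genes called there, 36, moved to 289 with no filter on low counts, 63 and 11 at Leiden resolutions 0.5 and 2, 8 with the members kept in clustering, 19 with the per-cell marker gate and 58 without cells with markers of classical monocytes (an alternative chosen after seeing the data), and ranged from 50 to 162 without each library in turn. In C1q macrophage-like cells, where 0 were called, the count was 1 with no filter, 6 with DESeq2 and 2 to 894 without each library. In classical monocyte-like cells, where 5 were called, it was 33 with no filter, 2 with DESeq2, 3 with the gate, 1 at resolution 2, 11 with doublets kept and 0 to 50 without each library; at resolution 0.5 no such class was named, so nothing was fitted. In nonclassical monocyte-like cells, where 1 was called, it was 8 with no filter, 0 with DESeq2, 6 with the gate, 0 without cells with alveolar markers and 0 to 9 without each library. For the difference of the effects between alveolar and C1q cells, where 0 were called, it was 111 with no filter and 0 to 525 without each library. Each printed list gene other than Krt79 kept its sign in alveolar cells under every alternative run, and Krt79 was not followed under the alternatives. With no filter 33 interferon-response genes were called. The cause of these shifts was not tested.

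The replicate numbers are shared between the groups, but no label says that they pair libraries, and the correlation of same-numbered libraries' deviations was -0.113 in alveolar cells and between -0.0906 and -0.0647 in the other classes. With a replicate block 19 genes were called in alveolar cells, 32 in C1q, 0 in classical and 5 in nonclassical monocytes, and none of the 9 members. With the block the interferon-response genes called in alveolar cells numbered 7, while Fabp5 (adjusted p = 0.117), Ctsk (adjusted p = 0.0709), Ccr2 (adjusted p = 0.0606), Fn1 (adjusted p = 0.0544) and Plac8 (adjusted p = 0.107) were not called. With the crossed pairing, chosen after seeing the data, 376 were called in alveolar cells.

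Values that changed sign were Ear2 in C1q cells with the gate (0.73), Chil3 in C1q cells without WT 1 (0.50, the range without each library being -0.82 to 0.50) and without cells with alveolar markers (1.39), Ear2 in classical monocytes with doublets kept (0.13), Abcg1 there with the gate (0.51), at resolution 2 (0.054) and with doublets kept (0.045), Ear2 in nonclassical monocytes at resolution 0.5 (-0.38), Pparg there without PD-L1 KO 2 (0.15, the range being -1.24 to 0.15), and the differences of the effect for Ear2 with the gate (-0.60) and for Chil3 without cells with markers of the other class (-1.05). The share of UMIs held by the alveolar class moved by more than its spread for 8 members with the members kept in clustering (all but Lpl), for 4 with doublets kept and for 1 with the gate. The 2 libraries per group, and the 41 to 81 cells per library of nonclassical monocytes, limit what can be called.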
